A study of Mus musculus with 3 samples.

Results

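Genes of cholesterol synthesis and targets of the transcription factor SREBP2 were examined in single cells of the mouse small intestine. The 7 genes, taken by symbol from the 13891 genes of the table, were Hmgcs1, Idi1, Fdft1, Sqle, Lss, Msmo1 and Insig1. Male ICR mice, an outbred strain, were 3 weeks old at injection. The AOS 0 mice received vehicle alone, the B + A 0 mice a busulfan injection at 40 mg/kg with vehicle, and the B + A 10 mice the same busulfan dose with alginate oligosaccharides (AOS) at 10 mg/kg, by gavage over 2 weeks. Busulfan is an alkylating drug used in chemotherapy. The study asked whether AOS relieves the damage that busulfan does to the small intestine. Cells of 6 mice per group were pooled into 1 droplet library, so that the 3 groups had no replicate library and differences between them were not tested. Intervals given for a library, a share or a ratio of libraries are 95% intervals of counting error only.

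Cholesterol is built from acetyl-CoA through the mevalonate arm and the sterol arm of the pathway. When sterols in the endoplasmic reticulum are scarce, SCAP carries SREBP2 to the Golgi, where proteases release its active part, and it turns on the genes of synthesis and of sterol uptake. When sterols are abundant, INSIG proteins hold SCAP and SREBP2 back. The small intestine takes up sterol from food and bile, exports part of it again, and also makes cholesterol itself. Hmgcs1 encodes the cytosolic HMG-CoA synthase at the head of the mevalonate arm, and Idi1 an isomerase of isopentenyl diphosphate in the same arm. Fdft1 (squalene synthase), Sqle (squalene epoxidase), Lss (lanosterol synthase) and Msmo1 (a methylsterol oxidase) act in that order in the sterol arm, and Insig1 encodes the retention protein, itself a target of SREBP2.

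In the GENCODE annotation of GRCm38 the genes lie apart. Hmgcs1 is at chr13:119690379-119708260 (plus strand) and Idi1 at chr13:8885501-8892451 (plus strand). Fdft1 is at chr14:63145150-63179578 (minus strand), Sqle at chr15:59315077-59331192 (plus strand) and Lss at chr10:76531588-76557138 (plus strand). Msmo1 is at chr8:64718139-64733792 (minus strand) and Insig1 at chr5:28071363-28078662 (plus strand).

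SREBP2 is known to bind sterol response elements with help from NF-Y, which binds CCAAT. The 250 bases before the RefSeq start of each gene were searched on both strands. The letters sought were TCACNCCAC, of which SREBP2 elements are variants, and CCAAT, with no overlap between the motifs found. RefSeq promoter entries (GRCm38.p6) were matched for 5 of the 7 genes, all but Sqle and Fdft1. CCAAT stood in 5 of these 5 windows and in 33.9% of all 32851 windows. TCACNCCAC stood in Hmgcs1 alone among the 5 and in 1.05% of all windows. The window of Hmgcs1, chr13:119690101-119690350 on the plus strand, is shown whole for its sterol response letters (bases -137 to -129 from the start) and 3 CCAAT boxes. For the other genes each CCAAT box is shown with the bases beside it. Capitals mark the motifs, and ATTGG is CCAAT on the opposite strand. A match of letters is a description and not a bound site.
Hmgcs1: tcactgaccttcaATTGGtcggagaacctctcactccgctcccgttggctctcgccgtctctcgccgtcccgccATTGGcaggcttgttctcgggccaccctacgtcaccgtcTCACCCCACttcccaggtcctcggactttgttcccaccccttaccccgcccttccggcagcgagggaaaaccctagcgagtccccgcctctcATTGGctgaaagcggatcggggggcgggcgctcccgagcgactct
Idi1, chr13:8885551-8885575: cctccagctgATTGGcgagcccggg
Idi1, chr13:8885582-8885605: ccaaggtgccATTGGctggcgacc
Lss, chr10:76531533-76531557: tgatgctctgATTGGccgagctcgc
Insig1, chr5:28071186-28071210: ccctcctcccATTGGctccggcggc
Msmo1 (minus strand), chr8:64733724-64733748: atccgcgcagCCAATgactggcgcc
Msmo1 (minus strand), chr8:64733660-64733684: ttagcacggaCCAATcactgcacgg
Msmo1 (minus strand), chr8:64733619-64733643: gtggggcggaCCAATtacgacaggc
Among the 41 listed genes of sterol and lipid metabolism with a promoter entry, 28 held CCAAT and 1, Hmgcs1, held TCACNCCAC.

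The libraries held 4106 cells (AOS 0), 3195 cells (B + A 0) and 5352 cells (B + A 10), with medians of 7371, 6407 and 3505 unique molecular identifiers (UMIs, which count captured RNA molecules) per cell. The lowest total in a cell was 3155, 3929 and 2051 UMIs. Barcodes were shared by 17 to 34 cells between any pair of libraries. For B + A 0 and B + A 10, the source field of the labels named another group than the title and treatment fields, which were followed. The cells fell into 22 clusters, and 11 classes with at least 20 cells in each library were named from marker genes. These were stem-like, cycling, early, mid villus, duodenal, mature and ileal enterocyte-like, goblet-like, Paneth-like, enteroendocrine-like and T cell-like cells. The label checks held for most classes: 6 of 6 ileal markers, 11 of 11 Paneth markers and 13 of 13 goblet markers were highest in their own class, against 3 of 6 mid villus markers. Haemoglobin genes (Hbb-b1, Hba-a1) were among the leading genes of a goblet-like cluster. Levels are normalised UMI counts, that is UMIs of a gene per 1000000 UMIs of a class in a library, and sets of 3 levels are given for AOS 0 first, B + A 0 second and B + A 10 last. The 3 libraries are the replicates of a difference between classes.

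By the mean over libraries, 5 of the 6 enzymes stood highest in ileal-like enterocytes, all but Lss, and each stood lowest in Paneth-like cells. The classes between formed a gradual order, for Hmgcs1 from 178 in goblet-like to 60.4 in stem-like cells. Of 50 pairs of classes next to each other in the order of a gene, 11 differed (limma, adjusted p under 0.05), and most of the 11 held the top or the bottom class. The other pairs were cycling above mature enterocyte-like cells for Sqle and duodenal above mature enterocyte-like cells for Fdft1. The plot of levels by class shows the 7 genes.

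**Figure D1:**
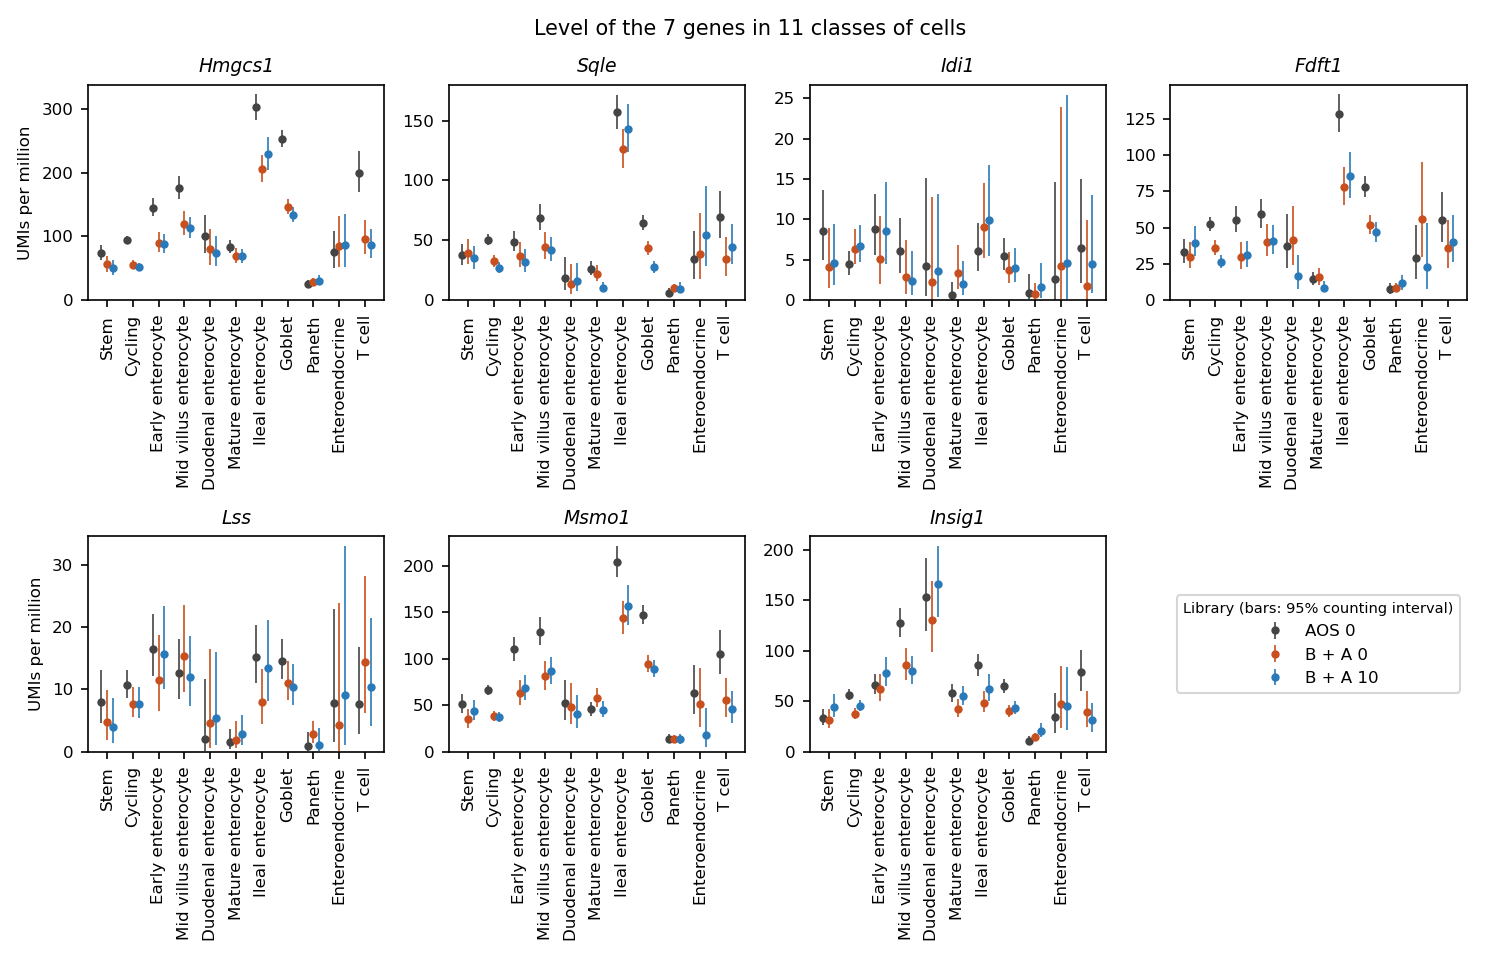
Normalised UMI counts (vertical axis, linear) of the 7 genes in 11 classes of cells named by marker genes (labels leave out "-like"), for the AOS 0 (grey), B + A 0 (orange) and B + A 10 (blue) libraries, with points for levels and bars for 95% counting intervals. Hmgcs1 stands at 303, 205 and 229 in ileal-like enterocytes and at 24.7, 28.7 and 30.6 in Paneth-like cells, while Insig1 is highest in duodenal-like enterocytes.

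In ileal-like enterocytes, the cells of the last part of the small intestine that take back bile acids, Hmgcs1 had levels of 303 (AOS 0), 205 (B + A 0) and 229 (B + A 10). In mature enterocyte-like cells, which carry the absorptive genes of the upper villus, its levels were 83.1, 69.5 and 68.7. The groups did not overlap, and the log2 difference was 1.66 ± 0.17 (SE, n = 3 libraries, limma adjusted p = 8.85e-10). Here and below, the share of all genes without overlap between 2 classes was not counted. Sqle had levels of 157, 126 and 143 in ileal-like and 26.2, 21.9 and 10.3 in mature enterocyte-like cells. Its log2 difference of 2.64 ± 0.23 (SE, limma adjusted p = 1.21e-11) was the largest of the 5 genes tested, with every ileal value above every mature value. Fdft1 had levels of 128, 77.9 and 85.2 against 14.3, 15.7 and 8.64 (log2 difference 2.50 ± 0.25, SE, limma adjusted p = 4.22e-10). Msmo1 had levels of 204, 144 and 157 against 45.8, 57.6 and 45.3 (log2 difference 1.66 ± 0.21, SE, limma adjusted p = 1.38e-07). The sterol arm genes Sqle, Fdft1 and Msmo1 were thus higher in ileal-like cells of every library.

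Insig1 stood apart from the enzymes. Its levels were 85.5, 48.6 and 62.5 in ileal-like and 57.6, 42.4 and 54.7 in mature enterocyte-like cells, which overlap (log2 difference 0.29 ± 0.22, SE, limma adjusted p = 0.363). Its highest class was duodenal-like enterocytes, the iron-absorbing cells of the first part of the small intestine, at 153, 131 and 166. These were above mid villus-like cells, the next class, by 0.61 ± 0.22 on the log2 scale (SE, limma adjusted p = 0.0345) and above ileal-like cells by 1.16 ± 0.22 (SE; limma adjusted p = 8.79e-05). Against duodenal-like cells, ileal-like cells thus had 4 of 5 genes higher (11.6% of all genes tested) and 1, Insig1, lower (19.3%).

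Idi1 and Lss were too low for the test, which took genes with a mean level of at least 10 over the classes, so 5 of the 7 genes passed. Idi1 had a mean of 4.55 and Lss of 8.38, with 401 and 780 UMIs in all cells. Lss had levels of 15.2, 8.0 and 13.5 in ileal-like cells and 1.56, 1.90 and 2.88 in mature enterocyte-like cells. Its highest mean was in early enterocyte-like cells (16.6, 11.6 and 15.7). Idi1 had levels of 6.08, 9.07 and 9.94 in ileal-like cells against 0.623, 3.33 and 2.06 in mature enterocyte-like cells, resting on 2 to 18 UMIs a library. The levels of either gene did not overlap between these classes, and the share of all genes without overlap was not counted. With no filter on low values 7 genes were tested and 6 were higher in ileal-like cells, beside 6.57% of all 13888 genes.

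Counts of genes per comparison are read against all 7039 genes tested. From mature to ileal-like cells 4 of 5 genes were higher and 0 lower, with 12.1% of all genes higher, and the median log2 difference was 1.66 against -0.03 over all genes. From stem-like to cycling cells 0 of 5 genes passed the limma test (0 at an unadjusted p under 0.05), where 3.71% of all genes were higher and 0.781% lower. Hmgcs1 had levels of 74.4, 56.1 and 50.7 in stem-like cells and 93.9, 55.8 and 51.5 in cycling cells. The cycling class pooled unlike clusters, which were not tested singly. Sums of the 7 genes were 480, 316 and 268 in the cluster led by Cdc20, against 247, 201 and 222 in stem-like cells. They were 265, 174 and 159 in the cluster led by Rrm2. In the cluster led by Ube2c and Top2a, which scored higher for stem (2.06) than cycling markers (1.73), they were 224, 174 and 183. With clusters made without joining the libraries, at a lower resolution or with the pathway genes kept, 3 of the genes were higher in cycling cells. In these settings 15.7%, 10.3% and 8.84% of all genes were higher, in that order.

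From stem-like to early enterocyte-like cells, the cells that have just left the crypt's dividing zone, 3 of 5 genes rose, beside 28.3% of all genes. Hmgcs1 rose by 0.77 ± 0.17, Msmo1 by 0.79 ± 0.21 and Insig1 by 0.83 ± 0.22 on the log2 scale (SE, limma adjusted p = 0.000359, 0.00251 and 0.00201). Sqle (log2 difference 0.05 ± 0.23) and Fdft1 (0.11 ± 0.25) did not pass. Without B + A 0 the log2 difference of Insig1 was 0.81 and no longer passed. From early to mature enterocyte-like cells 4 of 5 genes fell, beside 34.9% of all genes. Fdft1 fell by 1.26 ± 0.25 and Sqle fell by 0.90 ± 0.23, while Hmgcs1 fell by 0.49 ± 0.17 and Msmo1 fell by 0.61 ± 0.21 (log2, SE, limma adjusted p = 5.12e-05, 0.00105, 0.0159 and 0.0148). From stem-like to mature enterocyte-like cells 2 of 5 genes fell, Sqle and Fdft1, a share near the 39.1% of all genes that did. With the pathway genes kept in the clustering, 1 of 5 fell and 3 rose there, with a median log2 difference of 0.78 against 0.18, while 36.7% of all genes fell and 34.9% rose. From early to mature enterocyte-like cells, 2 rather than 4 genes fell without a library term in the fit, beside 33.1% of all genes. The call of Hmgcs1 there was lost without B + A 0 (log2 difference -0.55) and that of Msmo1 without AOS 0 (-0.33). Scaled to UMIs outside ribosomal protein, defensin and mitochondrial genes, 6 of 6 genes tested fell from early to mature enterocyte-like cells, where the median of all genes was -0.36 against -0.15 in the first scaling. The shares of all genes higher and lower were then 15.1% and 43.0% against 22.0% and 34.9%. From stem-like to early cells they were 19.0% and 30.1% against 28.3% and 22.7%, with 4 of 6 genes higher and the median of all genes at -0.14 against 0.05. From stem-like to mature cells they were 22.9% and 50.8% against 33.9% and 39.1%, with 3 of 6 genes lower and the median of all genes at -0.48 against -0.08.

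In goblet-like cells, which make mucus, Hmgcs1 had levels of 253, 147 and 134 and Msmo1 of 147, 94.3 and 89.4. Stem-like cells had 74.4, 56.1 and 50.7 for Hmgcs1 and 51.2, 34.9 and 44.1 for Msmo1, so the classes did not overlap. Between them 3 of 5 genes were higher in goblet-like cells, beside 17.3% of all genes, and the median log2 difference was 0.68 against -0.42 over all genes. The differences were 1.45 ± 0.17 for Hmgcs1, 1.23 ± 0.21 for Msmo1 and 0.68 ± 0.25 for Fdft1 (log2, SE, limma adjusted p = 4.77e-09, 6.82e-06 and 0.0163). The call of Fdft1 was lost without AOS 0 (log2 difference 0.45) and in the scaling without ribosomal protein, defensin and mitochondrial genes (0.42). In that scaling 3 of 6 genes were higher, and 11.3% of all genes were higher and 59.8% lower against 17.3% and 49.1%, with the median of all genes at -0.70. Goblet-like cells were second to ileal-like cells in the order of Hmgcs1, Fdft1 and Msmo1. The ileal level was higher by 0.49 ± 0.17 for Hmgcs1 on the log2 scale (SE, limma adjusted p = 0.0172). High doublet scores were found in 8.93% of goblet-like cells against 4.72% of all cells, and without the high-scoring cells the count of higher genes was also 3.

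Paneth-like cells, the defensin-secreting cells of the crypt base, had the lowest mean over libraries of each of the 7 genes. In single libraries mature enterocyte-like cells lay below them in 3 cases: Idi1 in AOS 0 (0.623 against 0.883), Lss in B + A 0 (1.90 against 2.85) and Fdft1 in B + A 10 (8.64 against 11.6). The log2 difference of Fdft1 between these classes did not pass (limma adjusted p = 0.224). Hmgcs1 was at 24.7, 28.7 and 30.6, and Sqle at 6.18, 10.2 and 9.49. From goblet-like to Paneth-like cells 5 of 5 genes were lower, but so were 85.9% of all genes. The 11 Paneth markers, defensins among them, together held levels of 537980 to 588860 in these cells. Scaled to UMIs outside ribosomal protein, defensin and mitochondrial genes, 5 of 6 genes tested were lower beside 15.6% of all genes (11.1% higher), and the median log2 difference was -1.10 against -0.04 over all genes. The exception was Insig1 at -0.36, which no longer passed.

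**Figure D2:**
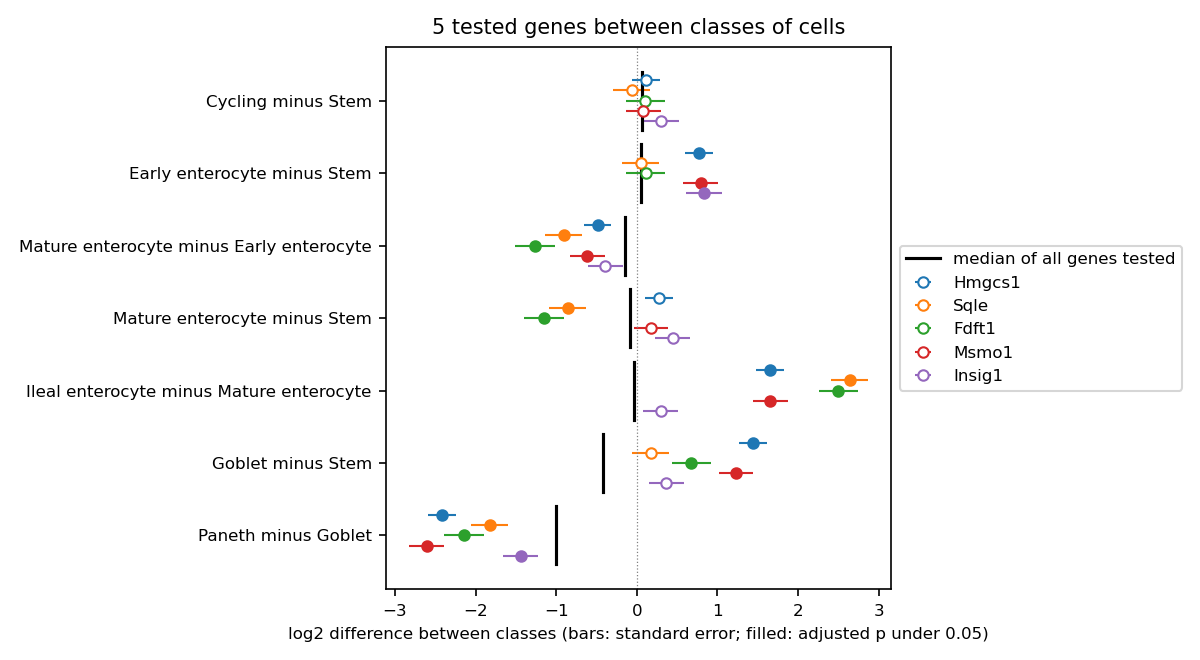
Log2 differences (horizontal axis) of the 5 tested genes for 7 pairs of classes named by markers (labels leave out "-like"), with standard errors as bars and filled points where the adjusted p was under 0.05. Black lines give the median of all 7039 genes. In ileal minus mature enterocyte-like cells 4 of the 5 points lie at 1.66 or above, and Insig1 lies at 0.29.

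The share of cells with a UMI of Hmgcs1 was compared at 1 depth. Thinning every cell to 1000 UMIs, which left out no cell, gave shares of 25.7% (21.1 to 30.7), 14.0% (9.89 to 19.0) and 21.4% (17.3 to 26.0) of ileal-like cells. Unthinned the shares were 83.8%, 69.5% and 53.0%, at median depths of 7730, 6782 and 3455 UMIs. In Paneth-like cells, the class with the lowest level, the thinned share was 2.35% (0.286 to 8.24), 3.77% (1.4 to 8.03) and 7.80% (3.96 to 13.5), and 40%, 49.7% and 33.3% unthinned, with median depths of 26780, 24720 and 11580 UMIs. No class here is known to lack the gene, so the part of free RNA in these shares was not tested.

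The lists of the mevalonate and sterol arms, which include Hmgcs1, Sqle, Fdft1 and Msmo1 themselves, gave the same contrast. In the mevalonate arm 7 of 8 genes tested (of 9 listed, Hmgcs1 among them) were higher in ileal-like than in mature enterocyte-like cells and 0 lower. Mvd, the mevalonate diphosphate decarboxylase, had a log2 difference of 2.05 ± 0.20 (SE), the largest of the arm, and Ggps1, which makes the prenyl group of proteins, the smallest (0.12 ± 0.23). In the sterol arm 8 of 10 tested (of 12 listed, with Sqle, Fdft1 and Msmo1) were higher, from Sqle down to Sc5d at 0.11 ± 0.16 (SE), which did not pass. Cyp51, the lanosterol demethylase, had levels of 138, 117 and 122 against 37.4, 29.0 and 36.6.

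Of the SREBP2 regulators 1 of 5 tested was higher. This was Srebf2, which encodes SREBP2 itself, with levels of 53.0, 49.1 and 51.8 in ileal-like cells against 17.4, 15.2 and 10.3 (log2 difference 1.56 ± 0.21, SE). Insig2, the partner of Insig1, had levels of 143, 129 and 136 against 144, 126 and 117, and Scap 11.1, 11.2 and 8.52 against 7.78, 11.4 and 7.0.

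Uptake and export genes split. In the uptake list 4 of 6 tested genes were higher and 2 lower. Npc1l1, the receptor that takes up cholesterol from the gut lumen, was lower, with 175, 185 and 221 in ileal-like cells against 432, 335 and 391 (log2 difference -0.98 ± 0.23, SE). The log2 difference of Cd36, a fatty acid and lipid receptor, was -3.47 ± 0.24 (SE). Of all genes 16.2% were lower in ileal-like cells and 12.1% higher. Among the genes of export and esterification 3 of 6 tested were lower and 0 higher. These were Abcg5 and Abcg8, whose products together pump sterols back into the lumen (log2 differences -0.96 ± 0.26 and -1.04 ± 0.28, SE), and Soat2, which esterifies cholesterol for chylomicrons (-1.22 ± 0.19, SE).

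Fatty acid genes, targets mainly of SREBP1, were mixed, with 3 of 7 tested higher and 2 lower. Scd2, a desaturase, had levels of 276, 224 and 263 against 16.5, 19.5 and 16.9 (log2 difference 3.52 ± 0.20, SE), the largest positive difference of all listed genes, and Fasn 22.0, 16.0 and 20.6 against 2.49, 5.71 and 4.12. Srebf1 was lower (log2 difference -0.70 ± 0.25, SE). Among the genes of ketone synthesis 1 of 3 tested was lower (Acat1). The plot of listed genes in ileal against mature cells shows their values by list.

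**Figure D3:**
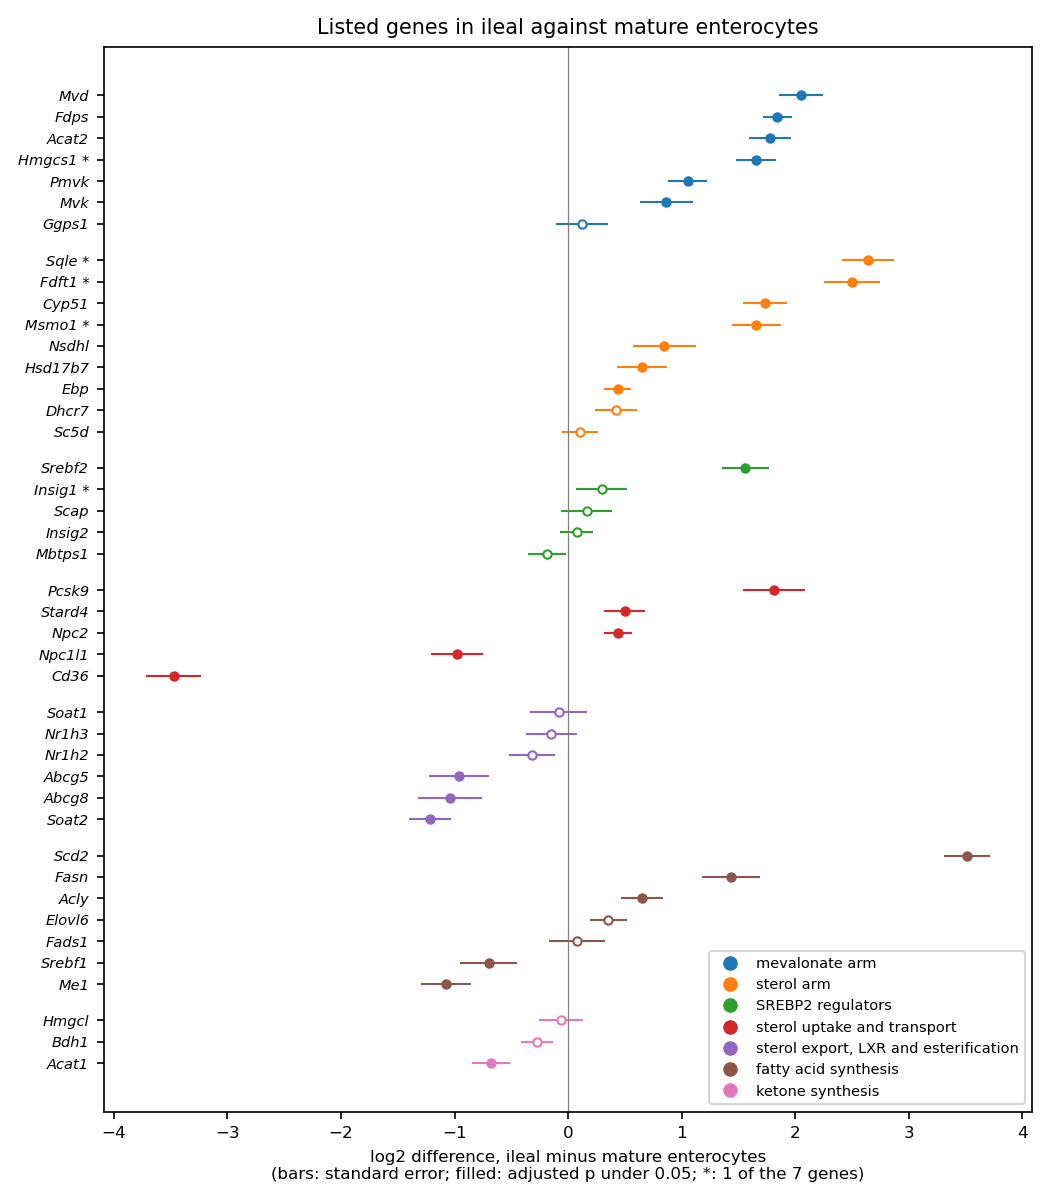
Log2 differences (horizontal axis) of listed genes between ileal and mature enterocyte-like cells (labels leave out "-like"), grouped by list in colours, with standard errors as bars, filled points where the adjusted p was under 0.05 and a star for the 7 genes. Genes not reported here are not drawn. The synthesis lists lie to the right with 7 of 8 and 8 of 10 genes passing, while Npc1l1, Abcg5, Abcg8 and Soat2 lie to the left.

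From early to mature enterocyte-like cells 6 of 8 mevalonate arm genes and 7 of 10 sterol arm genes were lower, beside 34.9% of all genes. These arm counts and those below include Hmgcs1 in the mevalonate arm and Sqle, Fdft1 and Msmo1 in the sterol arm. Sc5d was higher, as were 4 of 6 export and esterification genes, beside 22.0% of all genes. Acat2 had the largest fall of the mevalonate arm, where it fell by 2.24 ± 0.19 on the log2 scale (SE). From stem-like to early enterocyte-like cells 4 of 8 and 5 of 10 were higher and 0 lower in each arm, where 28.3% of all genes were higher and 22.7% lower. From stem-like to goblet-like cells 3 of 8 mevalonate arm genes were higher and 2 lower (Pmvk and Acat2), while 4 of 10 sterol arm genes were higher and 0 lower, where 17.3% of all genes were higher and 49.1% lower. From stem-like to cycling cells 0 of 8 and 1 of 10 were higher, beside 3.71% of all genes.

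Across the 33 sums of a class and a library the genes moved together. With each library's mean over classes removed, Pearson's r of the log2 levels was 0.93 for Hmgcs1 and Msmo1, 0.86 for Sqle and Fdft1, and 0.84 for Hmgcs1 and Fdft1. Insig1 had the weakest relations, from 0.30 with Sqle and Idi1 to 0.58 with Hmgcs1. These points share libraries and cells, and the r are descriptions. The sums include Paneth-like cells, where 85.9% of all genes were lower than in goblet-like cells, and r without them was not computed.

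Among the 7039 genes, those most like the mean standardized profile of the 7 genes outside the set included Fdps and Mvk (r = 0.91 and 0.89), at places 4 and 6 behind Hmgcs1, Msmo1 and Fdft1. Fdps encodes the farnesyl diphosphate synthase. Insig1 was at place 881 (r = 0.61) although the profile includes it, and the median r of all genes was 0.42. Outside the listed genes the 10 most alike included Cldn3, Krt19, Prss32, Capns1, Krt8, Gmds, 0610007P14Rik, Jund and Cltb, with r from 0.89 to 0.85. Cldn3 is a tight junction claudin, and Krt19 and Krt8 are keratins of simple epithelium.

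Between libraries, where fewer cells with a transcript and less RNA per cell cannot be told apart in a sum, the genes were lower in both busulfan libraries than in AOS 0 in most classes. In goblet-like cells Hmgcs1 had 1490, 673 and 542 UMIs, and levels of 253, 147 and 134. Its ratio of B + A 0 to AOS 0 was 0.578 (0.527 to 0.634), and that of Msmo1 0.640 (0.569 to 0.719). Of the 6 genes with at least 100 UMIs in both libraries together, 6 were over 20% lower in goblet-like cells, the mark used here (over 25% for higher), beside 15.5% of all genes counted in the same way. The median log2 ratio was -0.62 against -0.09 over all genes. In cycling cells 6 of 6 genes were over 20% lower (13.2% of all genes), and in mid villus-like cells 5 of 5 (14.4%). In early enterocyte-like cells it was 4 of 5 (14.7%), all but Insig1, and in ileal-like cells 4 of 5 (14.9%), all but Sqle. In stem-like cells it was 2 of 5 (14.7%), Hmgcs1 and Msmo1. From AOS 0 to B + A 10 the counts were 6 of 6 in goblet-like (20.9%), 5 of 5 in mid villus-like (20.2%), 4 of 5 in early enterocyte-like (18.8%), 4 of 5 in ileal-like (16.9%) and 5 of 6 in cycling cells (20.9%). In stem-like cells 1 of 5 genes was over 20% lower (22.7% of all genes), Hmgcs1 at 0.681 (0.511 to 0.903), and 1 over 25% higher (11.0%), Insig1 at 1.33 (0.935 to 1.89), and the sum had a ratio of 0.902 (0.783 to 1.04). In mature enterocyte-like cells 1 of 4 was over 20% lower (12.6%), Sqle at 0.393 (0.241 to 0.621), and the sum had a ratio of 0.840 (0.747 to 0.945), or 1.01 with cells thinned to 1000 UMIs. Both comparisons share the AOS 0 library. Transcripts typical of other classes also differed between the libraries. Apoa4, an enterocyte apolipoprotein, was at 139, 265 and 345 in stem-like and 305, 467 and 628 in goblet-like cells. Muc2, the goblet mucin, was at 197, 520 and 494 in ileal-like cells. Fabp6, the ileal bile acid binding protein, went the other way in goblet-like cells, at 1949, 1670 and 1676. The part of RNA from other cells in these ratios was not tested.

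In ileal-like cells the ratios of B + A 0 to AOS 0, for the 5 genes with enough UMIs, ran from 0.568 (0.442 to 0.725) for Insig1 to 0.803 (0.684 to 0.942) for Sqle. Below that number of UMIs, Lss had a ratio of 0.527 (0.273 to 0.962), and Idi1 went the other way at 1.49 (0.722 to 3.07), an interval that holds 1. The sum of the 7 genes was 899 in AOS 0 and 619 in B + A 0, a ratio of 0.688 (0.642 to 0.738). In goblet-like cells the ratio of the sum was 0.622 (0.587 to 0.658) and in stem-like cells 0.815 (0.703 to 0.944). In mature enterocyte-like cells it was 0.927 (0.822 to 1.04), an interval that holds 1, and with cells thinned to 1000 UMIs the direction turned, at a ratio of 1.23. There 1 of 4 genes was over 20% lower (13.5% of all genes), Insig1 at 0.736 (0.565 to 0.952), and 1 over 25% higher (9.76% of all genes), Msmo1 at 1.26 (0.981 to 1.61).

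In Paneth-like cells the sums were 63.5 in AOS 0 and 79.5 in B + A 0, a ratio of 1.251 (1.03 to 1.53), but the mean of per-cell values gave a ratio of 1.02. The log2 ratio of the sum was 0.32, beside a median of 0.36 over all genes in these cells. Of all genes 54.7% were over 25% higher there, and 0 of the 1 gene with enough UMIs, Hmgcs1, was. Npc1l1, an enterocyte gene, had a ratio of 2.71 (1.69 to 4.57) in the same cells, from 9.27 to 25.2, and Apoa4, an enterocyte apolipoprotein, went from 129 to 473. The part of RNA from other cells in the result was not tested. T cell-like cells had sums of 523 in AOS 0 and 278 in B + A 0, and 2 of 2 genes with enough UMIs were over 20% lower (24.0% of all genes). They also carried Muc2, the goblet mucin, at 1688, 2568 and 1795, Apoa4 at 1225, 1260 and 1294, and Fabp6, the ileal bile acid binding protein, at 1676, 3873 and 5509. The part of RNA from other cells in the T cell-like sums was not tested.

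Over the 22 clusters the interval of the ratio of the sum lay below 1 in 16, above 1 in 1, the Paneth-like cluster, and held 1 in 5. In the 4 goblet-like clusters the ratio ran from 0.481 to 0.885, with each interval below 1, and in the goblet-like cluster with haemoglobin genes it was 0.629 (0.565 to 0.698). Over all cells with the makeup of classes held at its mean, the sum had a ratio of 0.683 (0.664 to 0.702), while the median log2 ratio of all genes was -0.07. With that makeup held, Hmgcs1 had a ratio of 0.645, Msmo1 0.680, Fdft1 0.693, Insig1 0.698, Sqle 0.718, Lss 0.80 and Idi1 0.964. Idi1 had 171 and 113 UMIs, and its unheld ratio of 0.895 (0.699 to 1.14) holds 1. For comparison Npc1l1 had 0.914. The other synthesis genes, which are not among the 7, had a median log2 ratio of -0.39 in goblet-like cells (14 genes) and -0.24 in ileal-like cells (14 genes).

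**Figure D4:**
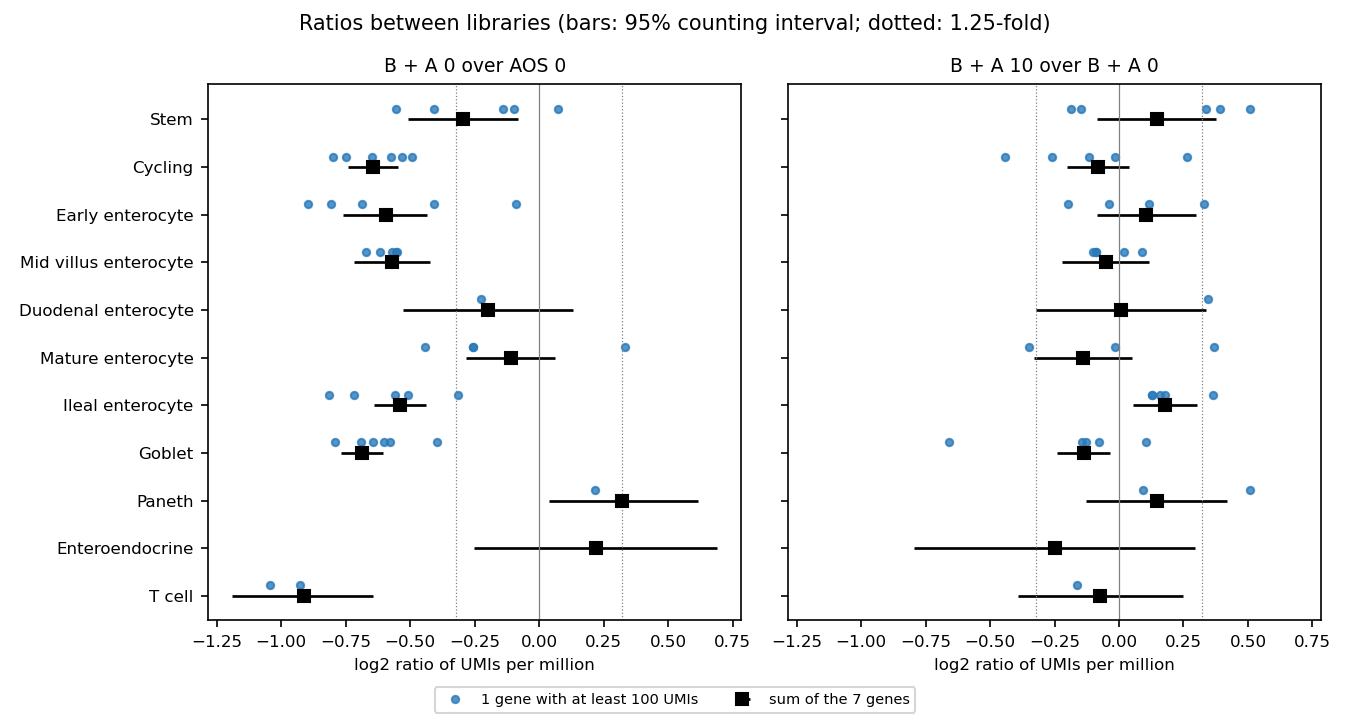
Log2 ratios of normalised UMI counts (horizontal axis) between libraries by class named by markers (labels leave out "-like"), B + A 0 over AOS 0 at left and B + A 10 over B + A 0 at right, with black squares for the sum of the 7 genes, bars for 95% counting intervals, blue points for single genes and dotted lines at the marks of 25% higher and 20% lower. At left most squares lie below 0 (goblet-like -0.69, ileal-like -0.54) and Paneth-like cells above it (0.32), while at right most intervals hold 0.

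From B + A 0 to B + A 10 the genes moved less. The sum over all cells with the makeup held had a ratio of 0.976 (0.944 to 1.01). In ileal-like cells the sums were 619 and 700, a ratio of 1.13 (1.04 to 1.23), and 5 of 5 genes had ratios above 1, from 1.09 to 1.29. All genes also leaned upward there, with a median log2 ratio of 0.05 against 0.16 for the 5 genes. Over 25% higher there was 1 of 5, Insig1 at 1.29 (0.949 to 1.74), beside 14.4% of all genes. The ileal sum in B + A 10 lay between those of B + A 0 and AOS 0, with a ratio of 0.779 (0.723 to 0.838) to AOS 0.

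In goblet-like cells the ratio of the sum was 0.909 (0.848 to 0.975). There 1 of 5 genes was over 20% lower (7.93% of all genes), Sqle at 0.634 (0.498 to 0.804), from 43.3 to 27.5. In cycling cells it was also 1 of 5 (7.72%). In stem-like cells 3 of 5 genes were over 25% higher (8.18% of all genes), Fdft1 at 1.31 (0.875 to 1.98), Msmo1 at 1.26 (0.865 to 1.86) and Insig1 at 1.42 (0.964 to 2.12), and each interval holds 1. Elsewhere genes with at least 100 UMIs in both libraries together were again counted. Insig1 was past the mark at 1.26 to 1.42 in early, duodenal and mature enterocyte-like and Paneth-like cells. Of all genes 10.6%, 14.6%, 13.5% and 3.94% were over 25% higher there, in that order. Msmo1 was at 0.786 in mature enterocyte-like cells, where 6.99% of all genes were over 20% lower. Each of these intervals holds 1 too. Below that number of UMIs genes moved both ways. Sqle in mature enterocyte-like cells went from 21.9 to 10.3, and Idi1 in early enterocyte-like cells from 5.06 to 8.53. Over clusters the interval of the ratio of the sum held 1 in 18 of 22. Among the 7 genes Insig1 had the highest ratio with the makeup held, 1.15, and Sqle the lowest, 0.884. Npc1l1 had a ratio of 1.20 with the makeup held, and levels over all cells of 126 in B + A 10 and 94.1 in B + A 0.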

How the data were processed

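Droplet single-cell RNA of 3 libraries was analysed. Per the submitters' processing notes, the authors counted UMIs with Cell Ranger 2.2.0 (mm10), and they deposited 1 table of 13891 genes and 12653 cells in natural log units, ln(1 + UMIs per 10000). Whole UMIs were recovered for 100% of values within 0.01 UMI, so 35258551, 26044381 and 23003083 UMIs stood behind AOS 0, then B + A 0, then B + A 10. No count model was fitted to the recovered UMIs.

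The 7 genes and the lists were chosen with earlier results of these data known. The libraries were joined by anchors on 20 dimensions and clustered at resolution 0.8 in Seurat 5.3.0 (R 4.3.3), with the 59 listed pathway genes left out of 2000 variable genes (1987 left). A cluster took the class with the most markers (at least 3) among its 10 leading genes, or otherwise the class with the highest marker score. It stayed unnamed with fewer than 3 markers above the mean of the clusters, with no own marker or more of another class among the leading genes, or where a goblet candidate scored higher for cycling genes. This rule was chosen after the clusters were seen, and 1038 cells stayed unnamed. Doublets were kept, and the 5% of cells with the highest Scrublet scores per library were left out as an alternative.

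UMIs were summed by class and library, and log2(UMIs per 1000000 + 5) was fitted with limma 3.58.1 (trend, robust) with class and library as terms, over 33 sums, 20 residual degrees of freedom and 7039 genes with a mean of at least 10. P-values were adjusted by Benjamini-Hochberg over all genes within a contrast, with a threshold of 0.05. The p-values rest on a residual spread pooled over all classes and libraries, so a gene has the same standard error for every pair of classes. They do not measure the spread of the given class difference alone across the 3 libraries. The 3 libraries are also the 3 treatments, so class differences that vary between treatments are part of the pooled spread. On simulated data for early minus stem-like cells, 72.9% of 199 genes changed 2-fold were called of 7114 run, and 0.03% of the others. The simulated counts held counting error and a fixed added spread, with no difference between libraries. These shares describe that setting and need not hold for the data. Between libraries no test was made. Intervals are at 95%, exact Poisson for a level, exact binomial for a ratio and Clopper-Pearson for a share. Genes with at least 100 UMIs in both libraries together were counted past the same marks for the share of all genes. Alternatives were the pseudocount, the filter, the scaling, the library term, the clustering, doublets, thinning, per-cell means and each library left out. Named genes are the 7, the listed genes with the largest and smallest differences of their list, and the 10 most alike. Other listed genes given with values, Cyp51, Srebf2, Insig2, Scap, Npc1l1, Abcg5, Abcg8, Fasn and Srebf1 among them, were chosen after their values were seen. Values of some listed or like genes are not reported here, though list counts include them. Python 3.11.15 with numpy, scipy and pandas was used for the rest.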

Additional observations from a re-analysis of the deposited data

Results flagged for a closer look

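The sum of the 7 genes differed in direction between classes in each comparison of libraries, with intervals on opposite sides of 0 on the log2 scale, and the difference between classes was not tested. For B + A 0 over AOS 0 it was 0.32 in Paneth-like cells, where the median of all genes was 0.36, and below 0 in goblet-like cells (-0.69). By the mean of per-cell values the Paneth-like value was 0.029. For B + A 10 over AOS 0 it was 0.47 in Paneth-like cells and -0.82 in goblet-like cells. For B + A 10 over B + A 0 it was 0.18 in ileal-like enterocytes and -0.14 in goblet-like cells. The medians of all genes there were 0.05 and 0.004.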

How the results depend on the processing

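No paired analysis was possible because each group has 1 library and its replicate number is only a name. The library term took the place of a replicate block. Without that block 2 rather than 4 genes fell from early to mature enterocyte-like cells, beside 33.1% of all genes. Counts of genes by class changed over 1.5 times as follows. From stem-like to cycling cells 3 rather than 0 were higher without joining the libraries, at resolution 0.4 and with the pathway genes kept in the clustering. The shares of all genes higher were then 15.7%, 10.3% and 8.84% against 3.71%. From stem-like to goblet-like cells 5 rather than 3 were higher with the pathway genes kept, beside 18.3% of all genes against 17.3%. From stem-like to mature enterocyte-like cells 4 of 7 rather than 2 of 5 were lower with no filter (32.6% of all genes against 39.1%). With the pathway genes kept 1 was lower (36.7%) and 3 were higher (34.9%). At resolution 0.4 and without AOS 0, 1 rather than 0 was higher (33.4% and 32.1%), a range of 0 to 1 over libraries left out. The cause was not tested. For single genes of the 7, 458 values kept their side of the threshold, 22 passed it only in the alternative and 10 lost it, with none reversed. Of listed genes, scaling without ribosomal, defensin and mitochondrial genes reversed Bdh1 (0.16), Hsd17b7 (0.42), Scap (0.15) and Soat1 (0.82) from goblet-like to Paneth-like cells.

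Between libraries the log2 ratio of the sum moved beyond its counting interval in these cases. Without holding the makeup it was -0.67 for B + A 0 over AOS 0 (reported -0.55), -0.65 for B + A 10 over AOS 0 (reported -0.59) and 0.022 for B + A 10 over B + A 0 (reported -0.03). With cells thinned to 1000 UMIs it was -0.52 for B + A 10 over AOS 0 over all cells, 0.29 for B + A 0 over AOS 0 and 0.016 for B + A 10 over AOS 0 in mature enterocyte-like cells (reported -0.11 and -0.25), and 0.55 for B + A 10 over B + A 0 in Paneth-like cells (reported 0.15), where the mean of per-cell values gave 0.52. That mean gave 0.029 for B + A 0 over AOS 0 in Paneth-like cells (reported 0.32). In cycling cells it was -1.01 without joining and -0.87 at resolution 0.4 for B + A 10 over AOS 0 (reported -0.72), and -0.43 and -0.24 for B + A 10 over B + A 0 (reported -0.08). In stem-like cells it was -0.38 without joining for B + A 10 over AOS 0 (reported -0.15). The cause was not tested. Depth limits Idi1 and Lss, with 401 and 780 UMIs in all cells.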

Other observations

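Unnamed cells also held the 7 genes. The cluster led by Fam151a, Tgfbi and Plb1, of 530 cells, had sums of 722, 369 and 276 UMIs per 1000000 in AOS 0, then B + A 0, then B + A 10. Its ratio of B + A 0 to AOS 0 was 0.512 (0.447 to 0.586) and that of B + A 10 to B + A 0 was 0.746 (0.627 to 0.888), both intervals below 1. High doublet scores were found in 17.2% of all unnamed cells against 4.72% of all cells, and their part was not tested. Among the goblet-like clusters, the one led by Ccl9 and Reg4 had sums of 496, 439 and 388 and the ratio nearest 1 of B + A 0 to AOS 0, 0.885 (0.794 to 0.986), while the one led by Ido1 and Clca1 had 611, 294 and 269 and the ratio farthest from it, 0.481 (0.425 to 0.542). Tuft-like cells, 28 in all, were too few to model and had sums of 287, 338 and 321.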
